A study of Saccharomyces cerevisiae with 4 samples.

Results

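The genes examined belong to iron transport in Saccharomyces cerevisiae and were chosen by name, with no threshold on a measured value: the surface reductases FRE1, FRE2 and FRE3, the oxidase and permease of high-affinity uptake FET3 and FTR1, the low-affinity transporter FET4, the vacuolar genes FET5, FTH1 and SMF3, and the copper pump CCC2. These are 10 of the 6209 genes in the count table, and all 10 passed the filter on low counts. The cells were BY4741, a haploid laboratory strain labelled MATa his3 leu2 met15 ura3, grown in rich YPD medium at 28 °C, and all cultures share that genotype. RNA came from 2 cultures given 3 µg/mL thiolutin, a sulfur-containing antibiotic used to block RNA polymerases, for 3 h, and from 2 cultures kept untreated. The submitters' notes speak of 3 replicates per condition and of exponential growth, the study's methods of 2 experiments and overnight cultures, and 2 libraries per condition were analysed here. The study took up this comparison to see how thiolutin changes the transcriptome.

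In this yeast, ferric iron outside the cell is first reduced to ferrous iron by membrane reductases of the FRE family, which also reduce copper. Ferrous iron then enters through a complex of the multicopper oxidase Fet3 and the permease Ftr1, and Fet3 works only after it has received copper, which the P-type ATPase Ccc2 pumps into the Golgi lumen. Iron is also stored in the vacuole, from which a second oxidase and permease, Fet5 and Fth1, and the Nramp-type transporter Smf3 release it. Many of these genes are activated by Aft1 and Aft2, transcription factors that bind DNA around the letters TGCACCC when iron is scarce. Mac1, the copper-sensing factor, binds TTTGCTCA.

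The upstream sequences below show 1 stretch with these letters before each gene, and not every match. The genes were chosen by name and not by sequence. Many are known targets of Aft1 and Aft2, however, so sharing their element is not an independent observation. Each stretch was read from the R64 reference genome on the coding strand, 5′ to 3′, and capitals mark exact matches to TGCACCC, to its core CACCC or to TTTGCTCA, on either strand, so that TGCACCC may also read GGGTGCA.
FRE1, chrXII:568261-568370, plus strand: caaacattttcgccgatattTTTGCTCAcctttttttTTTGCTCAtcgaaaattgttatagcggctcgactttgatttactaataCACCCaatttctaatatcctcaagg
FRE2, chrXI:11630-11676, minus strand: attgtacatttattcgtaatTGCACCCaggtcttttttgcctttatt
FRE3, chrXV:1055098-1055144, plus strand: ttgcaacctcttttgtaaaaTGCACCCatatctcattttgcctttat
FET3, chrXIII:388551-388597, plus strand: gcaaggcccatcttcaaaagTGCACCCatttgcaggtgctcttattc
FTR1, chrV:461889-461935, minus strand: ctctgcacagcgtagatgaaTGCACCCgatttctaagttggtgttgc
FET4, chrXIII:914725-914771, minus strand: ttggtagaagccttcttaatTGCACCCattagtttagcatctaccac
FET5, chrVI:48991-49037, plus strand: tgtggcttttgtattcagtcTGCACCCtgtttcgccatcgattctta
FTH1, chrII:634948-634992, plus strand: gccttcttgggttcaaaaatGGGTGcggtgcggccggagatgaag
SMF3, chrXII:212337-212383, minus strand: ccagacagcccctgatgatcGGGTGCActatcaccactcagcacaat
CCC2, chrIV:1005365-1005459, plus strand: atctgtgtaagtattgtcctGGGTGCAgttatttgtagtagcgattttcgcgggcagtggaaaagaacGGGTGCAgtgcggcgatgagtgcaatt
Within 600 bases before the start codon, 8 of the 10 genes held TGCACCC, against 2.68% of 5999 protein-coding genes. This window was added after the data were seen. The core CACCC, which lies inside TGCACCC, was found before all 10 and before 39.1% of all genes. TTTGCTCA was found in 2 copies before FRE1, at -286 and -269 counted back from the start codon, and once before FTR1, against 2.90% of all genes. The planned window was shorter, at 250 bases before to 50 after the start codon. In it TGCACCC was found for FTR1, FET4, FET5 and CCC2 (4 of 10, against 1.30% of 6001 genes). Other elements were searched in that window: CCTTNAAGG, the core of the zinc-responsive element of Zap1, was found for 0 members, against 0.433% of all genes, and ATTGTT, the core of the Rox1 element, for FRE3 alone, against 35.2% of all genes. Within 600 bases CCTTNAAGG was again found for 0 members, against 1.08% of all genes, and ATTGTT for 4 (FRE1, FRE3, FTR1 and SMF3), against 54.9%. Such a match is a description of the letters and not proof of a bound site.

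**Figure D1:**
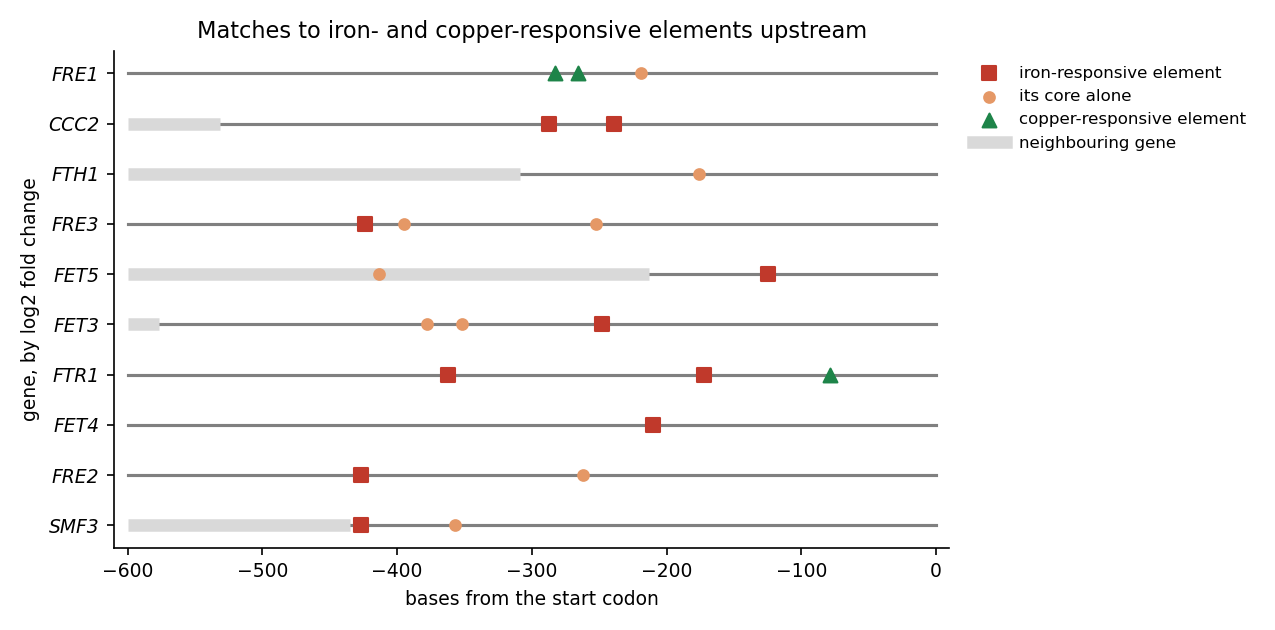
Matches upstream of the 10 genes, which are ordered by log2 fold change with the largest at the top. The horizontal axis gives bases from the start codon, squares are TGCACCC, circles are CACCC outside it, triangles are TTTGCTCA, and thick pale lines are the neighbouring gene. CCC2 and FTR1 carry 2 squares each, and FRE1 and FTH1 carry none.

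With thiolutin, 7 of the 10 genes rose, SMF3 fell, and FRE2 and FET4 did not pass the test. Values are CPM, the reads of a gene as a share of its library scaled by TMM. Calls were made at p under 0.05 in the quasi-likelihood test of edgeR after Benjamini-Hochberg adjustment over 5937 genes. Over all genes tested, 31.2% rose and 32.4% fell (1850 and 1924 genes), while with total counts as the scale 965 were higher and 3605 lower, and 5 members were higher and 3 lower. A rise of at least 1 on the log2 scale was found for 5 members (FRE1, FRE3, FET5, FTH1 and CCC2), against 15.7% of all genes. With total counts only FRE1 (2.78) and CCC2 (1.57) kept such a rise. FRE3 (0.47), FET5 (0.46) and FTH1 (0.67) stayed higher with a smaller change. The median log2 fold change was 0.95 over the members and -0.04 over all genes. The thiolutin and untreated libraries did not overlap for 8 members, against 84.6% of all genes. The members together held 1648 and 1647 CPM in the thiolutin libraries, against 778 and 812 CPM in the untreated libraries, a ratio of means of 2.07. By role, this ratio was 5.78 for the 3 surface reductases, 1.73 for FET3 with FTR1, 1.11 for FET4, 1.59 for the 3 vacuolar genes and 4.46 for CCC2. These ratios hold on the TMM scale only and were not computed with total counts. Members of a role differed: the fitted fold change was 10.4 for FRE1, 0.806 for FRE2 and 2.09 for FRE3, and 2.07 for FET5, 2.39 for FTH1 and 0.782 for SMF3.

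Reads in genes came to 17038991 and 21440741 in the thiolutin libraries and to 30205335 and 29962621 in the untreated libraries. The coefficient of variation beyond counting noise was 2.31% within the thiolutin pair and 16.7% within the untreated pair, so most of the error below comes from the untreated cultures. Scaling by total counts in place of TMM put the all-gene median at -0.63 on the log2 scale. Both scales compare shares of the sequenced RNA, and fewer cells and less RNA per cell cannot be told apart. Of the genes that mark the mating type, 5 markers of a cells summed to 790 and 803 CPM in the thiolutin libraries and to 1868 and 1459 CPM in the untreated libraries, and 4 alpha-cell genes to 41.4 to 46.3 CPM in all 4. Among the a-cell markers, STE2, MFA2, BAR1 and STE6 were lower in both thiolutin libraries. MFA1 overlapped, with 344 and 344 CPM in the thiolutin libraries against 357 and 181 CPM in the untreated libraries. Member genes had between 149 and 11268 reads in a library.

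**Figure D2:**
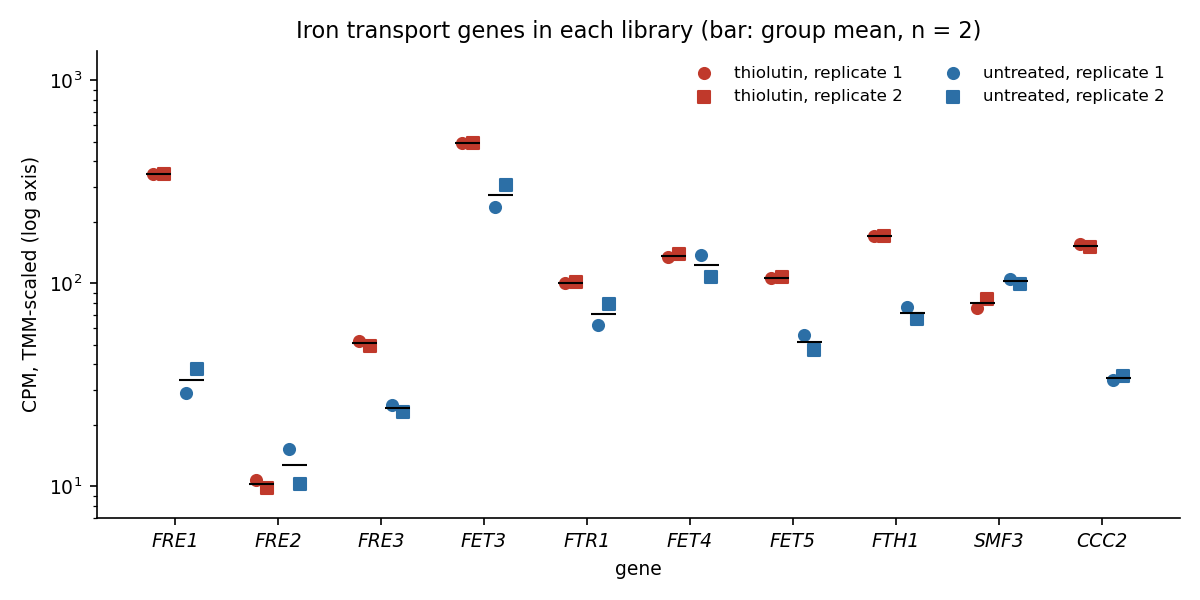
TMM-scaled CPM of the 10 genes on a log axis, with the thiolutin libraries left of the untreated libraries for each gene. Circles are replicate 1, squares are replicate 2, and bars are group means of 2 libraries. FRE1 and CCC2 show the widest gaps, while the groups of FRE2 and of FET4 overlap.

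FRE1, the main ferric and cupric reductase of the cell surface (YLR214W, chromosome XII, 568567 to 570627 of R64, plus strand), had the largest change of the 10. Its level was 346 and 346 CPM in the thiolutin libraries, against 29.0 and 37.8 CPM in the untreated libraries. Both thiolutin values lay far above both untreated ones. The log2 fold change was 3.37 (standard error 0.16, adjusted p = 0.000161 from edgeR), or 10.4-fold. Its convergent neighbour CDC123, which ends 148 bp away, rose as well (log2 fold change 2.61). Whether the counting separated the strands is not given in the sources used here, and a part of neighbouring transcripts in the FRE1 count was not tested.
FRE2, a second ferric and cupric reductase (YKL220C, chromosome XI, 9091 to 11226, minus strand), lies 9.09 kb from the chromosome end and was the least abundant member. It had 10.8 and 9.87 CPM in the thiolutin libraries, against 15.3 and 10.2 CPM in the untreated libraries. The groups overlapped, and untreated replicate 1 stood above the other 3 libraries. The log2 fold change was -0.31 (95% interval -0.91 to 0.28, adjusted p = 0.286 from edgeR). With total counts as the scale FRE2 passed, at -0.90 (adjusted p = 0.0146). The value also hung on the untreated pair: leaving out untreated replicate 2 gave -0.57 and leaving out untreated replicate 1 gave 0.013.
FRE3, a reductase of iron bound to siderophores (YOR381W, chromosome XV, 1055545 to 1057680, plus strand), is the closest relative of FRE2 among the members, with 77.8% identical bases over 2129 aligned positions. It had 51.8 and 49.4 CPM in the thiolutin libraries, against 25.3 and 23.2 CPM in the untreated libraries. The groups did not overlap, and the log2 fold change was 1.06 (standard error 0.10, adjusted p = 0.000843 from edgeR). No stretch of 50 bases of FRE2, FRE3 or any other member occurs a second time in the R64 genome.
Within each library the 3 reductases were also set against each other by reads per kb. FRE1 made up 85.2% and 85.8% of their reads per kb in the thiolutin libraries, against 42.6% and 53.9% in the untreated libraries. The share of FRE2 was 2.55% and 2.36% with thiolutin, against 21.7% and 14.1% in untreated cells. The share of FRE3 was 12.3% and 11.8% with thiolutin, against 35.8% and 32.0% in untreated cells. Such shares do not depend on how the libraries are scaled.

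FET3, the multicopper ferroxidase of the plasma membrane (YMR058W, chromosome XIII, 388822 to 390732, plus strand), was the most abundant member in both conditions. It had 494 and 489 CPM in the thiolutin libraries, against 238 and 305 CPM in the untreated libraries. The groups did not overlap, and the untreated libraries differed from each other by more than the thiolutin libraries did. The log2 fold change was 0.86 (standard error 0.14, adjusted p = 0.00512 from edgeR) and 0.27 with total counts as the scale (adjusted p = 0.150). It did not pass without thiolutin replicate 1 (log2 fold change 0.85).
FTR1, the iron permease that needs Fet3 to reach the cell surface (YER145C, chromosome V, 460526 to 461740, minus strand), changed less. It had 100.5 and 101 CPM in the thiolutin libraries, against 62.2 and 79.6 CPM in the untreated libraries. Both thiolutin values were above both untreated ones. On the log2 scale the change was 0.51 (standard error 0.14, adjusted p = 0.0256 from edgeR) and turned to -0.08 with total counts as the scale (adjusted p = 0.622). The call of FTR1 was lost when thiolutin replicate 1 or replicate 2 was left out.
The ratio of FET3 to FTR1 in reads per kb was 3.13 and 3.07 in the thiolutin libraries, against 2.43 and 2.44 in the untreated libraries. The untreated cultures thus differed in the level of both genes and hardly in their ratio. With 2 libraries against 2, a two-sided exact permutation test can give no p below 0.333, which is the value obtained (0.444 adjusted over 4 ratios).
FET4, a low-affinity transporter of ferrous iron that also carries other metals (YMR319C, chromosome XIII, 912880 to 914538, minus strand), lies 9.89 kb from a chromosome end. It had 135 and 139 CPM in the thiolutin libraries, against 138 and 108 CPM in the untreated libraries. The groups overlapped, with untreated replicate 2 below the other 3 libraries. A log2 fold change of 0.16 was obtained (95% interval -0.21 to 0.52, adjusted p = 0.371 from edgeR). With total counts as the scale it was -0.43 (adjusted p = 0.0342), which lies above the median of all genes on that scale. Without untreated replicate 1 it was 0.36 and without untreated replicate 2 it was -0.0068.

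**Figure D3:**
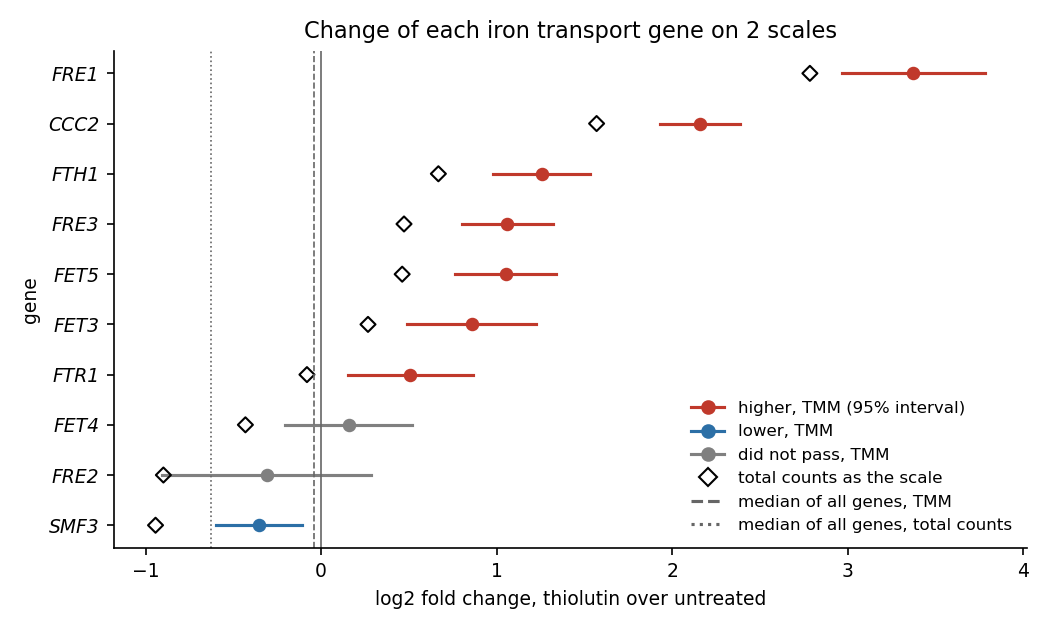
Log2 fold change of the 10 genes, thiolutin over untreated. Filled points with 95% intervals are on the TMM scale and coloured by call, open diamonds use total counts as the scale, and dashed and dotted lines mark the median of all genes on each scale (-0.04 and -0.63). FTR1 and FET4 lie above 0 on the TMM scale and below 0 with total counts.

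FTH1, a vacuolar relative of FTR1 (YBR207W, chromosome II, 635146 to 636543, plus strand), rose in both thiolutin libraries. It had 172 and 170.3 CPM with thiolutin, against 76.8 and 66.4 CPM in untreated cells. The groups did not overlap, and the log2 fold change was 1.26 (standard error 0.11, adjusted p = 0.000652 from edgeR).
FET5, the vacuolar relative of FET3 (YFL041W, chromosome VI, 49139 to 51007, plus strand), rose as well. It had 106 and 107 CPM with thiolutin, against 55.9 and 47.0 CPM in untreated cells. Its log2 fold change was 1.05 (standard error 0.11, adjusted p = 0.00121 from edgeR), and the groups did not overlap. It lies between YFL041W-A and YFL040W, whose log2 fold changes were 1.25 and 1.13.
The ratio of FET5 to FTH1 in reads per kb was 0.461 and 0.470 with thiolutin, against 0.544 and 0.530 in untreated cells. In every library the permease transcript FTH1 thus had more reads per kb than FET5, whereas FET3, the oxidase transcript, had more than FTR1. FTR1 stood to FTH1 as 0.672 and 0.684 with thiolutin, against 0.931 and 1.38 in untreated cells. Each of these ratios also gave an exact permutation p of 0.333. For FET3 to FET5 the ratio was 4.55 and 4.47 with thiolutin, against 4.16 and 6.35 in untreated cells, where the groups overlapped (exact permutation p = 1), and the sign of the difference turns without untreated replicate 2.
SMF3, a transporter that moves iron out of the vacuole (YLR034C, chromosome XII, 210512 to 211933, minus strand), was the only member that fell on the TMM scale. It had 75.9 and 84.0 CPM in the thiolutin libraries, against 105 and 99.8 CPM in the untreated libraries. The groups did not overlap, and the difference on the log2 scale was -0.35 (standard error 0.096, adjusted p = 0.0252 from edgeR). The call was lost without thiolutin replicate 1 or 2, at log2 fold changes of -0.29 and -0.43. Among FET5, FTH1 and SMF3, SMF3 held 22.9% and 24.8% of the reads per kb with thiolutin, against 46.5% and 49.1% in untreated cells.
CCC2, the copper pump of the Golgi (YDR270W, chromosome IV, 1005675 to 1008689, plus strand), had the second largest change. It had 156 and 151 CPM in the thiolutin libraries, against 33.4 and 35.1 CPM in the untreated libraries. No library of one group came near the other group. Its log2 fold change was 2.16 (standard error 0.090, adjusted p = 0.000127 from edgeR), or 4.46-fold. Its neighbours MSW1 and GLO2 fell, with log2 fold changes of -0.53 and -0.72 (adjusted p = 0.0160 and 0.0152 from edgeR).

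**Figure D4:**
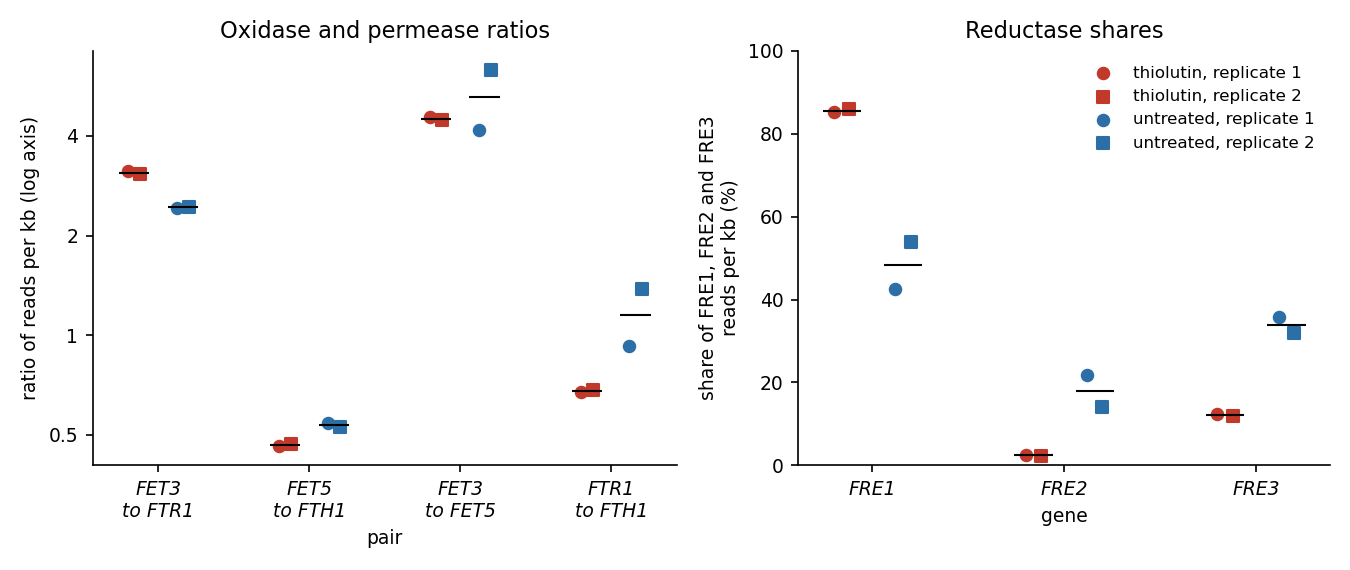
Left, ratios of reads per kb between oxidase and permease genes in each library on a log axis. Right, the shares of FRE1, FRE2 and FRE3 in their summed reads per kb. Thiolutin libraries are left of untreated libraries, circles are replicate 1, squares are replicate 2, and bars are means; FRE1 moves to above 85% with thiolutin.

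Levels were compared between genes as CPM per kb of gene, so that length does not enter. With thiolutin FET3 was the highest (257 ± 1.90, SD, n = 2), followed by FRE1 (168 ± 0.0144) and FTH1 (122 ± 0.869). FTR1 (83.0 ± 0.410) and FET4 (82.6 ± 1.60) did not differ beyond their spread, and neither did FET5 (57.0 ± 0.339) and SMF3 (56.2 ± 4.08). CCC2 (50.8 ± 1.16), FRE3 (23.7 ± 0.815) and FRE2 (4.83 ± 0.292) came last. In untreated cells FET3 was again the highest (142 ± 25.1). FET4 (74.1 ± 13.0), SMF3 (71.9 ± 2.44), FTR1 (58.3 ± 10.1) and FTH1 (51.2 ± 5.27) followed, with neighbours in that order closer than their spread, except for SMF3 and FTR1, whose gap slightly exceeded it. FET5 (27.5 ± 3.34), FRE1 (16.2 ± 3.03), CCC2 (11.4 ± 0.405), FRE3 (11.3 ± 0.675) and FRE2 (5.98 ± 1.68) were the lowest, and CCC2 and FRE3 did not differ beyond their spread. FRE1 therefore held the second place with thiolutin and the seventh place in untreated cells.
By mean-centred log2 CPM over the 4 libraries, the 3 protein-coding genes with the pattern most like that of FET3, of 5815 ranked, were UFE1, SET2 and EFB1, at Euclidean distances of 0.0519, 0.0596 and 0.0597 on the log2 scale. None of the 3 is an iron transport gene. The ranking rests on 4 values per gene, so nearness in it does not tell which genes share their control.

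The other lists of iron and metal genes were described by counts from the same test, in which 31.2% of all genes rose and 32.4% fell. Of 5 further metalloreductases, 4 rose. FRE7, a reductase known for its control by copper, rose most (log2 fold change 4.19), followed by FRE6 of the vacuole (1.21), FRE4 (0.96) and FRE5 (0.67), while FRE8 had -0.096 and did not pass. With total counts as the scale FRE5 did not pass and FRE8 was lower. All 7 genes of siderophore binding and uptake rose, by a median log2 fold change of 3.30, and the members' median of 0.95 was lower than that of this list. The cell wall mannoproteins FIT2 (4.49) and FIT1 (4.24), which hold siderophores, led it. Of 12 regulators and iron-sparing genes, 10 rose, led by LSO1 (6.02), a small protein made in iron scarcity, and TIS11 (2.49), which targets mRNAs of iron-using proteins for decay. The transcript of AFT2 rose as well (2.25), while that of AFT1 (0.26) did not pass. The glutaredoxin gene GRX4 fell (-0.76), while GRX3 (1.22), FRA1 (1.32) and BOL2 (0.47) of the same list rose. With total counts as the scale BOL2 did not pass (-0.12).
Of 8 genes of vacuolar and mitochondrial iron stores, 5 rose and 2 fell. ISU2, a scaffold of iron-sulfur clusters (2.87), and MMT1, a mitochondrial iron transporter (2.04), rose, and the frataxin gene YFH1 (-0.52) and CCC1, which brings iron into the vacuole (-0.29), fell. Both calls of a fall were lost without thiolutin replicate 1 and without thiolutin replicate 2, which left 0 lower genes in this list, and 1 was left with the Wald test of DESeq2 and with the replicate block. Of 7 copper genes, 5 rose, led by the copper transporters CTR2 of the vacuole (3.10) and CTR1 of the cell surface (2.39). MAC1 (-0.26) did not pass on the TMM scale and was lower with total counts as the scale. Of 8 other transporters of divalent metals, the zinc transporters ZRT1 (5.43) and ZRT3 (0.96) rose. The 3 that fell included SMF2 (-0.74), a manganese transporter related to SMF3, and PMR1 (-0.54), a calcium and manganese pump. The median of this list was 0.0067, and its shares of higher and lower genes were near those of all genes. With total counts as the scale, 6 of these 8 were lower and 2 of the copper genes were higher.

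**Figure D5:**
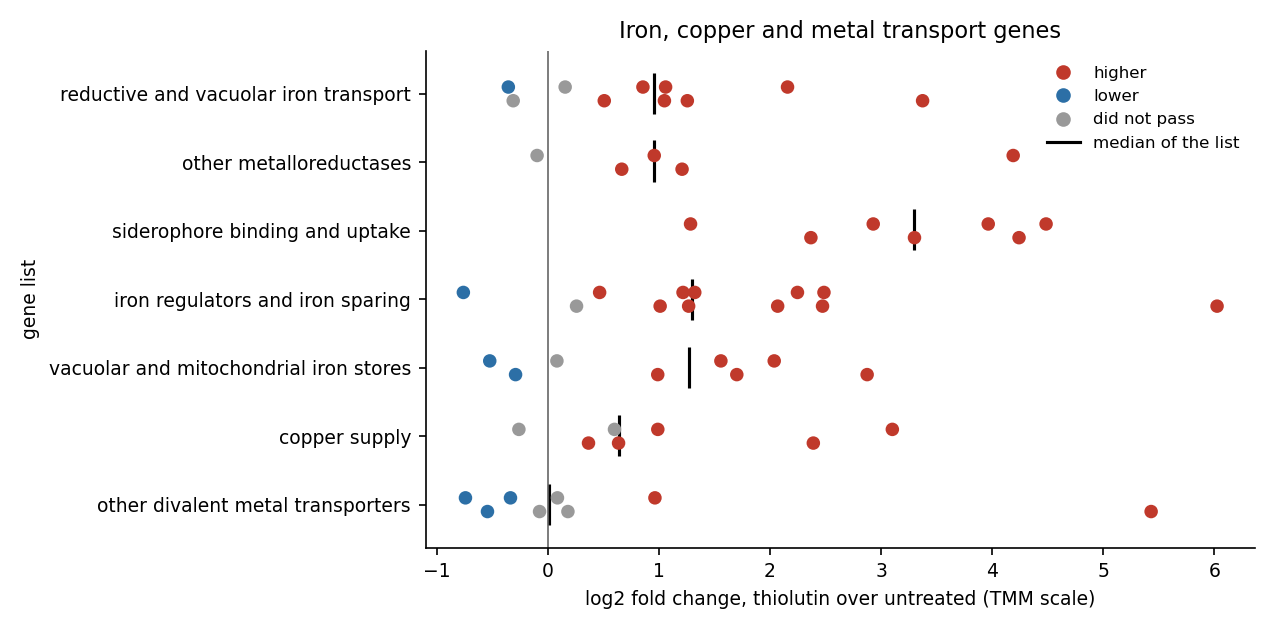
Log2 fold change, thiolutin over untreated, of every gene in the 7 lists on the TMM scale. Each point is a gene, coloured by call, and the black line is the median of its list. All 7 siderophore genes lie above 1, while the iron transport genes run from -0.35 to 3.37.

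The upstream element and the change were set side by side without a test. Of the 8 members with TGCACCC within 600 bases, 5 rose, 1 fell and 2 did not pass. FRE1 and FTH1, where CACCC but not TGCACCC was matched, both rose. Other spellings around CACCC were not searched, so a gene without TGCACCC may still hold a variant of the element. Over all genes tested, 62 of 157 with TGCACCC rose (39.5%) and 38 fell (24.2%), and these 157 include the 8 members. Of 5646 genes without it, 1724 rose (30.5%) and 1868 fell (33.1%). FET4 has the same TGCACCC letters at -213 that FET3 has at -251, with a log2 fold change of 0.16 for FET4 and of 0.86 for FET3. The stretches are not alike otherwise: FET3 has further CACCC matches at -380 and -354, and FET4 has none besides its TGCACCC.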

How the data were processed

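RNA selected by its poly(A) tail was sequenced from both ends in 2 thiolutin and 2 untreated libraries of BY4741. The deposited counts are the authors' raw read counts per gene on build R64, and the submitters' processing notes name DESeq2. Not given in the sources used here are the aligner, the counting program and how it treated the strand and reads with several matches. The table held 6209 genes after 3 lines that name no gene, and 6206 matched R64. The authors' 4 columns of normalized counts, their fold changes, test statistics and p-values were not used.

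Genes with low counts were removed by filterByExpr of edgeR 4.0.16 in R 4.3.3, which left 5937. Libraries were scaled by TMM (factors 0.813 and 0.817 for thiolutin, 1.22 and 1.23 for untreated) and compared with the quasi-likelihood test. The Benjamini-Hochberg adjustment ran over all genes tested, with calls at an adjusted p under 0.05. The common biological coefficient of variation was 12.2%. The script was checked on simulated data with the same spread in every library, whereas the observed spread differed between the groups. Ratios and shares used raw reads per kb within a library. The libraries are labelled biological replicates, and with 2 per group p-values rest on the spread shared across genes.

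Sequences, gene positions and motif matches came from the R64 genome and its RefSeq annotation with Biopython 1.88. Genes named outside the 10 members were all other FRE genes, up to 2 genes each way with the largest change in each other list, the neighbours, and the 3 genes nearest to FET3. GRX3, FRA1 and BOL2 were named beside GRX4 as well, and AFT1, AFT2 and MAC1 because their elements were searched. The members and lists were chosen with earlier results of these data known. The alternatives tried were a scale from total counts or from DESeq2 size factors, the Wald test of DESeq2 1.42.0, unfiltered counts, a block for the replicate number, omission of single libraries, and a log2 fold change of at least 1. The window of 600 bases was added after the data were seen.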

Additional observations from a re-analysis of the deposited data

How the results depend on the processing

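Of 90 values of member genes under alternatives, 77 kept their direction and their side of the threshold, and FRE1, FRE3, FET5, FTH1 and CCC2 did so under all 9 alternatives. With total counts as the scale, 5 members were higher and 3 lower, against 7 and 1 with TMM: the log2 fold change was -0.90 for FRE2 (now passing), 0.27 for FET3 (not passing), -0.081 for FTR1 and -0.43 for FET4 (both turned). The size factors of DESeq2, its Wald test, no filter and the replicate block changed no call of a member. Leaving out a single culture gave 5 to 8 higher and 0 to 2 lower members. The log2 fold change ran from -0.57 to 0.013 for FRE2 and from -0.0068 to 0.36 for FET4, both turning sign with untreated cultures left out, from 0.70 to 1.05 for FET3, from 0.35 to 0.70 for FTR1 and from -0.43 to -0.29 for SMF3. A fit that leaves out an untreated library takes its spread from the thiolutin pair and assumes that the lone culture varies as little. On the TMM scale, a log2 fold change of at least 1 as well left 5 higher and 0 lower members.

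Over all genes, total counts gave 965 higher and 3605 lower, the fold threshold 931 and 613, and leaving out 1 library 1163 to 2437 higher and 893 to 2572 lower. In the other lists, total counts gave 1 lower metalloreductase, 2 higher and 1 lower copper genes and 6 lower divalent metal transporters. The fold threshold gave 2 higher metalloreductases, 0 lower regulators, 0 lower genes of iron stores, 2 higher copper genes, and 1 higher and 0 lower divalent metal transporters. The Wald test of DESeq2 and the replicate block each gave 1 lower gene of iron stores. Leaving out 1 library gave 0 to 1 lower metalloreductases, 0 to 2 lower genes of iron stores, 2 to 6 higher and 0 to 1 lower copper genes, and 2 to 4 higher and 1 to 4 lower divalent metal transporters. The deviations of replicate 1 from its group mean had a correlation of 0.023 between the groups. The thiolutin pair varied by only 2.31% beyond counting noise, so this value cannot tell whether the number pairs the cultures. With 600 bases upstream in place of the shorter window, 8 members held TGCACCC, 2 TTTGCTCA and 4 ATTGTT. The cause of these shifts was not tested, and 2 libraries per group limit every value.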
